A study of Mus musculus with 4 samples.

Results

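Endoplasmic reticulum chaperones and disulfide isomerases are the folding machinery of the secretory pathway, and 10 of their genes are described here in the beating mouse atrial cell line HL-1. The genes were Hspa5, Hyou1, Sdf2l1, Hsp90b1, Calr, Canx, P4hb, Pdia3, Pdia4 and Pdia6, and every probe set annotated to 1 of these symbols alone was taken, without regard to its values. This gave 22 of the 45037 probe sets on the array that are not manufacturer's controls, and 10 of 18193 genes. HL-1 descends from a mouse atrial tumour driven by a viral oncogene, so all 4 samples are 1 immortal line.

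The study compared rapidly paced with spontaneously beating atrial cells. In the stimulated group (2 arrays), confluent HL-1 cells received electric pulses at 300 per minute over 24 h, a rate that the labels put at 1.5 to 2 times that of controls. In the control group (2 arrays) the cells contracted spontaneously, with no electrodes mentioned, so the faster rate and the electrical field itself cannot be told apart. The sample titles number the stimulated samples only, so the numbers of the controls were assigned here. The labels do not say that the samples came from separate cultures. The p-values therefore rest on a spread between arrays that may be only technical.

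Proteins that enter the endoplasmic reticulum (ER) fold with the help of chaperones that bind unfolded stretches, of lectins that hold glycoproteins through their sugars, and of oxidoreductases that form and rearrange disulfide bonds. When unfolded protein builds up, the sensors encoded by Atf6, Ern1 (IRE1) and Eif2ak3 (PERK) start the unfolded protein response. The ATF6 and XBP1 factors of that response act on many chaperone promoters through the ER stress response element (ERSE), while PERK acts through ATF4 and the factor encoded by Ddit3 (CHOP). In heart muscle the same compartment also stores the calcium released at each beat, and calreticulin, GRP94 and several isomerases bind calcium.

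RefSeq promoter windows (GRCm38.p6, 250 bases before to 50 after each gene's start) were at hand for 9 of the 10 genes, all but Hyou1. The ERSE is known from chaperone promoters, so its presence in these genes is a description and no independent result. The motif searched on both strands was CCAAT and CCACG with any 9 bases between them. It was found in the windows of 5 of the 9 genes, against 39 of all 32851 windows (0.119%). Each site is printed on the strand that reads CCAAT first, with the CCAAT and CCACG parts in capitals and up to 20 bases on each side.
Hspa5, chr2:34772005-34772063, plus strand: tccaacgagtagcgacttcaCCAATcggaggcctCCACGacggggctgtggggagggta
Hsp90b1, first site, chr10:86705618-86705676, minus strand: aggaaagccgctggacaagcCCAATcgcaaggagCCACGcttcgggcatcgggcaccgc
Hsp90b1, second site, chr10:86705513-86705571, plus strand: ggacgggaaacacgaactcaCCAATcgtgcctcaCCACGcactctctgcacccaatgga
Calr, chr8:84847055-84847113, plus strand: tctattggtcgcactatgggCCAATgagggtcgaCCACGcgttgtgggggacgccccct
Canx, chr11:50325780-50325838, minus strand: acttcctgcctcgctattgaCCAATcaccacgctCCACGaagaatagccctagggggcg
Pdia6, chr12:17266471-17266529, plus strand: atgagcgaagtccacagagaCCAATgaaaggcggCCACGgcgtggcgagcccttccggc

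The Hspa5 site began 65 bases before the gene's start, the Pdia6 site 98 and the Canx site 145 before it. The Calr site lay 162 bases upstream and, like the second Hsp90b1 site at 107 bases, read on the strand opposite to the gene. Hsp90b1 was the only one of the 9 genes with a pair of sites that ended before the gene's start, and sites reaching past it were not listed. Allowing any last base in the CCACG part (120 windows or 0.365% of all, the exact matches included) added Pdia3 and Pdia4, whose sites are printed with the free last base in lower case.
Pdia3, chr2:121413853-121413901, plus strand: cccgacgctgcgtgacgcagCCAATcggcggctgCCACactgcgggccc
Pdia4, chr6:47813582-47813640, plus strand: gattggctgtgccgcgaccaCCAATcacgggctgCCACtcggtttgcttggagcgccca
P4hb and Sdf2l1 had neither form in their windows. These are matches of letters, not measured binding sites.

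All values are log2 expression, made by the authors with RMA, so a difference of 1 is a doubling. Each gene was represented by its probe set with the highest mean, and limma was run over the 13058 genes with a mean of at least 4.39, which 40% of all probe sets fell below. All 10 genes passed that level, and of their 22 probe sets 21 did. Over the whole series an adjusted p under 0.05 was reached by 722 genes, 5.53% of those tested, of which 510 rose (3.91%) and 212 fell (1.62%). The rises were 70.6% of the calls, or 55.3% of 852 calls with arrays centred on the median of the genes tested. All 8 atrial muscle markers passed the filter. With stimulation Nppa rose, Tbx5 fell and 6 of the 8 had both stimulated arrays below both controls, an order that 27.7% of all genes tested showed (marker median -0.24). Of markers of other cells, 4 of 6 for fibroblasts, 3 of 4 for smooth muscle, 1 of 4 for endothelium and 2 of 4 for leukocytes passed, while Col3a1, Myh11, Pecam1, Cdh5, Ptprc and Itgam lay below the filter. Of these only the leukocyte marker Cd68 was called, as higher with stimulation (6.34 and 6.59), and its controls at 4.07 and 4.70 had a mean just under the filter level, so that it passed the filter through the stimulated arrays and the size of its rise is not given. In such bulk samples fewer cells of a type and less RNA per cell cannot be told apart, and the part of these marker shifts in the results was not tested.

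With rapid stimulation 0 of the 10 genes passed the test, against the background of 5.53%, and 1 (Pdia4) had an unadjusted p under 0.05, against 25.6% of all genes. The differences ran from -0.41 for Pdia4 to 0.27 for Hspa5, with a median of -0.14, against -0.01 over all genes tested. The 95% intervals of all 10 genes, each by its brightest probe set, lay between -0.72 and 0.59. That is between 0.609-fold and 1.51-fold, so none of these reached a halving or a doubling. The interval of the dimmest Hyou1 probe set, -1.29 to -0.08, did take in a halving (lower end 0.409-fold). These intervals are not adjusted for the number of genes. The smallest difference called among all 13058 genes was 0.60 in size, and no smaller one passed the test. The standard errors of the 10 genes, 0.12 to 0.16, were close to the median of 0.14 for all genes.

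**Figure D1:**
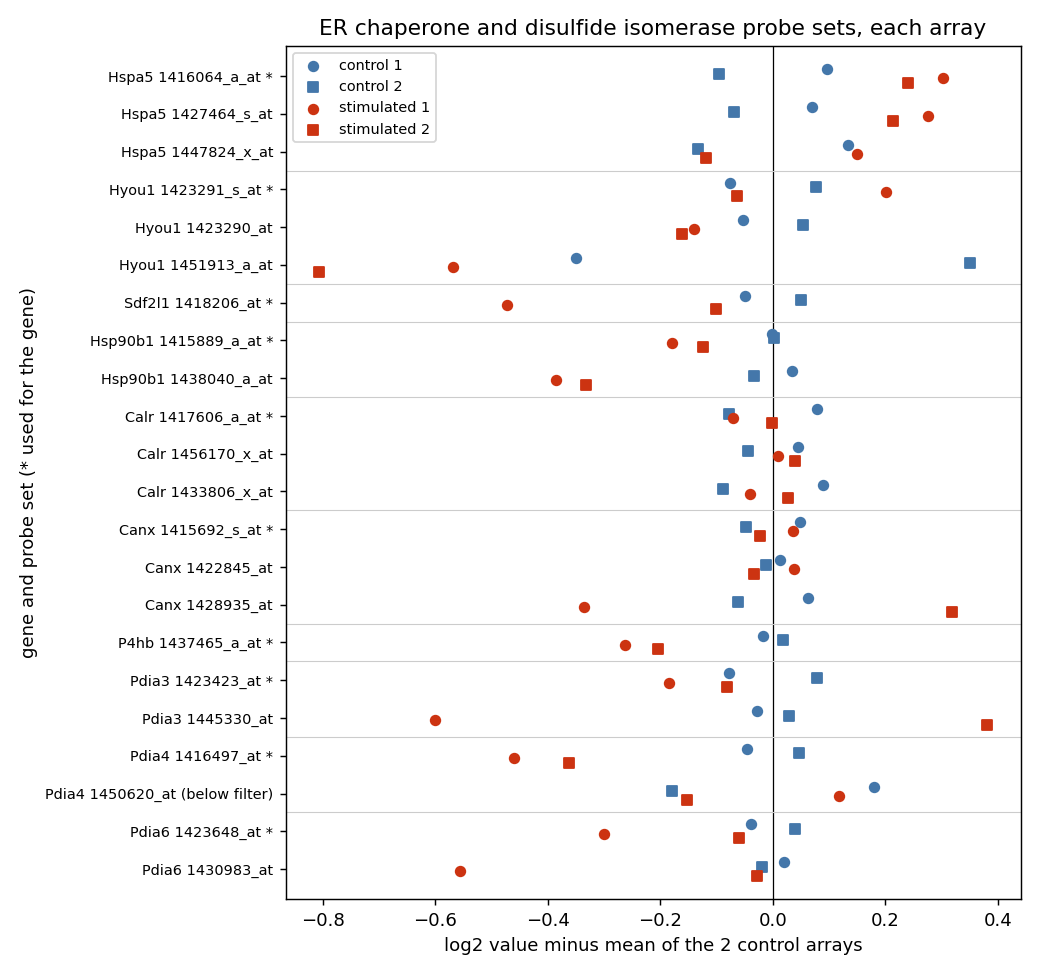
Log2 value of each array minus the mean of both control arrays (horizontal axis) for the 22 probe sets of the 10 genes (vertical axis, an asterisk marks the probe set used for the gene), with controls in blue and stimulated arrays in red. Stimulated points lie right of both controls in 2 Hspa5 probe sets only, and left of both in 10 probe sets.

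Hspa5 encodes BiP (GRP78), the HSP70-class chaperone of the ER lumen, which also holds the stress sensors inactive. Its brightest probe set read 12.58 and 12.39 in the control arrays and 12.79 and 12.72 in the stimulated arrays. Both stimulated arrays were above both controls. The difference of 0.27 ± 0.13 (SE), or 1.21-fold with a 95% interval of 0.965 to 1.51, did not pass the test (adjusted p = 0.267). A second Hspa5 probe set gave nearly the same picture, at 11.88 and 11.74 in controls and 12.08 and 12.02 in stimulated cells (difference 0.24 ± 0.13, adjusted p = 0.321). The third, an x-type set whose probes may also match other transcripts, read 8.95 and 8.68 against 8.96 and 8.69, and the groups overlapped.

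Hsp90b1 encodes GRP94, the HSP90-class chaperone of the ER, with a narrower set of clients than BiP. It read 11.99 in each control array, and 11.81 and 11.87 with stimulation. The stimulated arrays were both lower, and the difference of -0.15 ± 0.12 did not pass (adjusted p = 0.491). On its other probe set the values were 11.79 and 11.72 in controls against 11.37 and 11.42 with stimulation. That difference of -0.36 ± 0.13 had an unadjusted p of 0.0288 and an adjusted p of 0.159 over 27022 probe sets, of which 3.85% were called. Hspa5 and Hsp90b1 therefore lay on opposite sides of 0 in their main probe sets. Within arrays, the log2 value of Hspa5 minus that of Hsp90b1 was 0.59 and 0.39 in controls and 0.97 and 0.86 with stimulation, a shift of 0.42. The groups did not overlap, and an exact two-sided permutation test gave p = 0.333, the smallest that 2 against 2 arrays allow. This pair, like the other pairs compared within arrays, was chosen with the values known.

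Hyou1 encodes GRP170, a large HSP70 relative that releases nucleotide from BiP. Its probe sets disagreed. The brightest read 10.82 and 10.97 in controls and 11.10 and 10.83 with stimulation, so that the groups overlapped (difference 0.07 ± 0.15, adjusted p = 0.828). A second probe set read 9.66 and 9.76 against 9.57 and 9.55, with both stimulated arrays lower (difference -0.15 ± 0.13). The dimmest read 7.88 and 8.58 in controls, a gap of its own, against 7.67 and 7.43 with stimulation. Its difference of -0.69 ± 0.25 was the largest in size among the 21 member probe sets tested and did not pass (unadjusted p = 0.0316, adjusted p = 0.166). Without stimulated array 1 or without control 1, and with the mean over its probe sets, the Hyou1 difference was below 0, at -0.06, -0.01 and -0.26.

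Sdf2l1 is a small ER protein that works with BiP and its J-domain partners and keeps clients soluble. Its only probe set read 10.38 and 10.48 in controls and 9.96 and 10.33 with stimulation. Stimulated array 1 was well below the controls and array 2 just below them. The difference of -0.29 ± 0.16, or 0.820-fold, did not pass (adjusted p = 0.334), and it was -0.10 without stimulated array 1 and -0.47 without stimulated array 2. Its paralog Sdf2 read 9.89 and 10.16 in controls and 9.35 and 9.76 with stimulation (difference -0.47 ± 0.19, adjusted p = 0.181).

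The lectin chaperone genes did not separate the groups. Calr encodes calreticulin, the soluble lectin and main calcium store of the ER lumen, and it read 12.35 and 12.19 in controls and 12.20 and 12.27 with stimulation. Canx encodes calnexin, the membrane-bound lectin, and it read 12.24 and 12.15 against 12.23 and 12.17. The arrays of both groups overlapped for each gene. The difference was -0.04 ± 0.13 for Calr, with a 95% interval of -0.35 to 0.28 (adjusted p = 0.901). For Canx it was 0.01 ± 0.12, with an interval of -0.29 to 0.31 (adjusted p = 0.983), and its sign turned, to -0.06, with arrays centred on the median of the genes tested. All 3 probe sets of Calr and all 3 of Canx overlapped between groups, and their differences lay between -0.04 and 0.02. The dimmer Calr sets are of the x-type, whose probes may also match other transcripts. The dimmest Canx probe set had stimulated arrays far apart, at 6.89 and 7.54, on either side of the controls at 7.28 and 7.16.

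Among the disulfide isomerases, both stimulated arrays were below both controls for all 4 genes, where 27.7% of all genes tested showed that order, and 0 of 4 passed the test with limma (1 at an unadjusted p under 0.05). P4hb encodes PDI itself, which forms and exchanges disulfides and is also the beta subunit of collagen prolyl hydroxylase. It read 11.99 and 12.03 in controls and 11.74 and 11.80 with stimulation, and the difference was -0.23 ± 0.12 (adjusted p = 0.289). The catalytic alpha subunits of that hydroxylase, P4ha1 and P4ha2, differed by -0.18 ± 0.20 (adjusted p = 0.648) and -0.15 ± 0.31 (adjusted p = 0.818).

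Pdia4, ERp72, is an isomerase with an extra active domain that is found in complexes with BiP and GRP94. It read 10.26 and 10.35 in controls and 9.84 and 9.94 with stimulation. The gap between groups was larger than the gap between arrays of a group. The difference of -0.41 ± 0.12, or 0.752-fold with a 95% interval of 0.609 to 0.928, had the smallest p of the 10 genes (unadjusted p = 0.0163, adjusted p = 0.109). Its adjusted p ranged from 0.0777 to 0.407 over the other ways of processing, and with the mean of both its probe sets the difference was -0.21. The second Pdia4 probe set, at 4.43 and 4.07 in controls and 4.36 and 4.09 with stimulation, lay below the filter and was not tested.

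Pdia3, ERp57, is the isomerase that calreticulin and calnexin recruit to glycoproteins. It read 12.34 and 12.50 in controls and 12.23 and 12.34 with stimulation, and stimulated array 2 lay only just below control 1. The difference was -0.13 ± 0.13 (adjusted p = 0.593). Pdia6, the isomerase P5 that binds BiP, read 11.26 and 11.34 against 11.00 and 11.24, with stimulated array 1 the lower (difference -0.18 ± 0.14, adjusted p = 0.484). The dimmer probe sets of both genes had widely spread stimulated arrays. That of Pdia3 read 6.15 and 6.21 in controls but 5.58 and 6.56 with stimulation, and that of Pdia6 read 6.91 and 6.87 against 6.33 and 6.86.

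**Figure D2:**
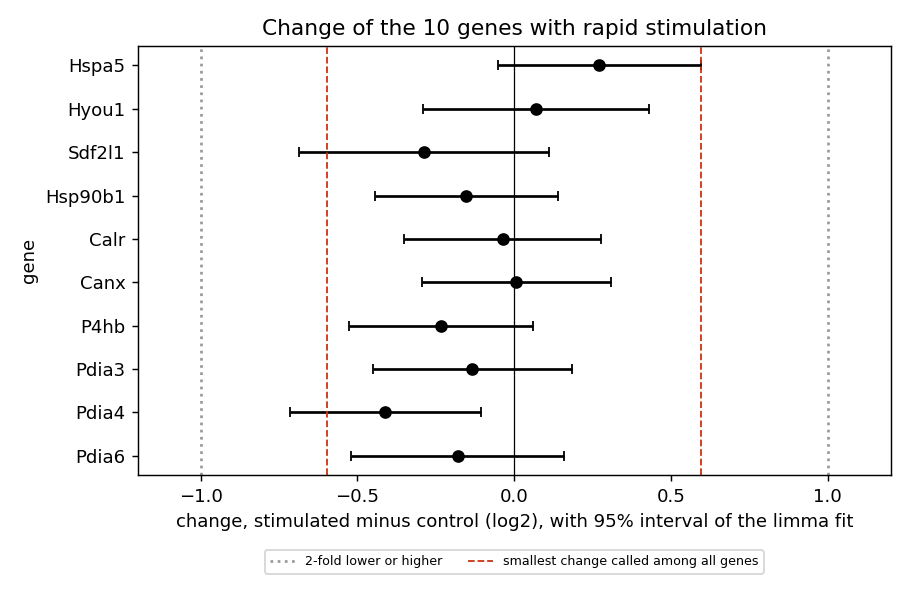
Difference between stimulated and control arrays (log2, horizontal axis) for the 10 genes (vertical axis), with points for the limma estimate and bars for its 95% interval, 2 arrays per group. Only the Pdia4 interval, -0.72 to -0.11, leaves out 0, and all bars lie inside the dotted lines of a 2-fold difference (dashed lines mark 0.60, the smallest difference called among all genes).

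Across probe sets, 0 of the 21 tested passed, against 3.85% of 27022, and 3 had an unadjusted p under 0.05, against 23.9%. They were 1 each of Pdia4, Hsp90b1 and Hyou1, all with stimulated values lower. Both stimulated arrays were lower than both controls in 10 of the 21, where 28.8% of all probe sets showed that order. They were higher in 2, both of Hspa5, where 25.3% of all did. By gene the counts were 6 lower, where 27.7% of all genes were, 1 higher, where 27.6% were, and 3 overlapping. Stimulated array 1 was below stimulated array 2 for 7 of the 10 genes, and control 1 was below control 2 for 7 as well. The widest gap between the stimulated arrays was 0.37, in Sdf2l1, against 0.19 at most between the controls. The median difference was -0.07 without stimulated array 1, and -0.13 to -0.18 without each of the other arrays.

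**Figure D3:**
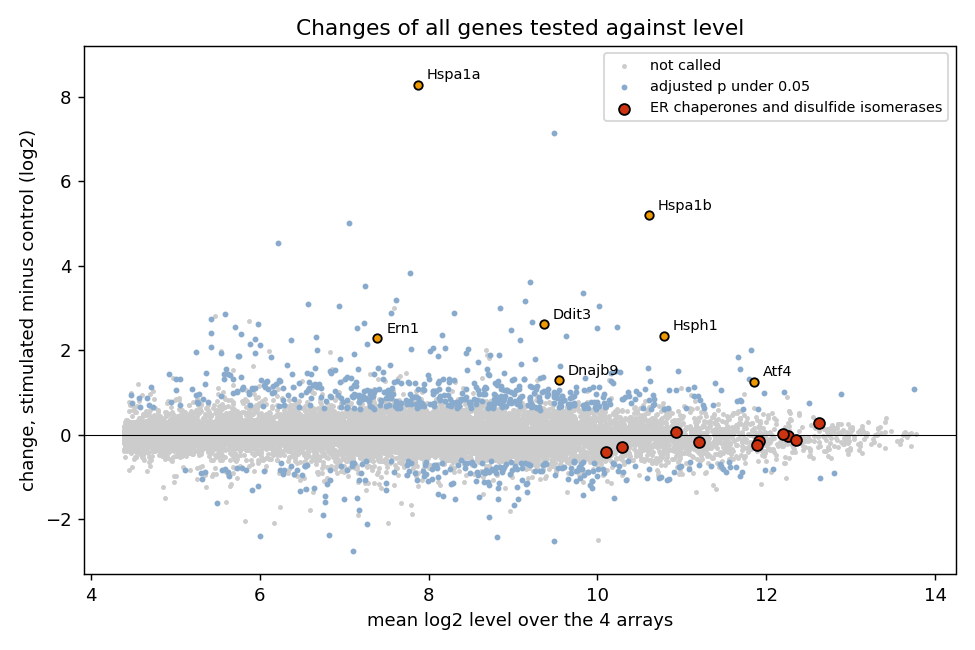
Difference between stimulated and control arrays (log2, vertical axis) against the mean log2 level over the 4 arrays (horizontal axis) for the 13058 genes tested, with the 10 ER chaperone and isomerase genes in red, genes with an adjusted p under 0.05 in blue and named stress genes in orange. The 10 genes lie at mean levels where some other genes, such as Atf4, were called.

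The level of the 10 genes was between 9.84 and 12.79 on every array, below the highest value of the series, 14.29. Some other genes of high level were called, and whether level affected the calls of the 10 genes was not tested. The cytosolic chaperone gene Hsp90aa1, at 12.25 and 12.53 in controls, rose to 13.19 and 13.54 (0.97 ± 0.18, adjusted p = 0.0406, or 0.0992 to 0.186 with 1 array left out).

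Several regulators of ER stress rose. Of 36 genes tested in a list of unfolded protein response regulators and ER degradation factors, 6 rose and 1 fell, with a median of 0.16. Of all genes tested 3.91% rose and 1.62% fell. Ddit3, which encodes the stress factor CHOP, went from 7.97 and 8.14 to 10.74 and 10.60 and rose by 2.62 ± 0.13 (adjusted p = 0.00221, other probe set 1.30). Ppp1r15a, which encodes GADD34, the phosphatase subunit that restores translation, rose by 2.55 ± 0.23 (adjusted p = 0.0121). Atf4, the translation-controlled factor below PERK, rose by 1.26 ± 0.12 (adjusted p = 0.0144, other probe sets 0.21 to 1.33). Herpud1, which helps ER-associated degradation, rose by 1.02 ± 0.16 (adjusted p = 0.03), and Ubxn4, another degradation factor, by 1.02 ± 0.15 (adjusted p = 0.029). Creb3l2, an ER-anchored transcription factor, fell by 1.18 ± 0.23 (adjusted p = 0.0462), a call lost with no filter on level, with each array centred on its median and with the mean of probe sets. Creb3l1, a relative of it, was called as lower, at -0.63 to -0.69, with centring on the median of the genes tested, a filter at the 60th percentile, the replicate number fitted as a block and the mean of probe sets.

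Among the 3 stress sensors, Ern1 rose by 2.29 ± 0.14, from 6.37 and 6.12 to 8.57 and 8.50 (adjusted p = 0.00398). However, its other probe sets past the filter differed by 0.0028 and 0.52. The mean of all its probe sets, including any below the filter, rose by 0.67. Atf6 differed by 0.33 ± 0.12 (adjusted p = 0.162, other probe sets 0.51 and 0.53) and Eif2ak3 by 0.23 ± 0.18 (adjusted p = 0.486). Xbp1, whose transcript IRE1 splices, differed by 0.17 ± 0.15 (adjusted p = 0.547), and its splicing was not measured by these values. With each array left out in turn, Ddit3 and Ern1 passed in all 4 fits and Ppp1r15a without either stimulated array. The remaining 4, Atf4, Herpud1, Ubxn4 and Creb3l2, passed in none, with adjusted p up to 0.215. The difference between this list and the 10 folding genes was not tested.

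The ERSE sites were set beside these values. Of 37 genes with an exact ERSE in the promoter window, 16 were tested, 5 of them among the 10 genes. Of the 16, 0 were called by limma, against 5.53% of all genes tested. An unadjusted p under 0.05 was reached by 1 of them, against 25.6% of all. It was Ptgdr2, which is no folding gene and is named after its value was seen. The differences of the 16 genes lay between -0.41 (Ptgdr2) and 0.27 (Hspa5), with a median of -0.08. In the lists of related genes they included Syvn1, an ER ubiquitin ligase (0.26 ± 0.13), Creld2 (0.15 ± 0.12), Dnajc3, a BiP cochaperone (-0.02 ± 0.19), Derl3 (-0.09 ± 0.18) and Ero1b, an oxidase (-0.18 ± 0.12), with adjusted p from 0.262 to 0.96. A related element, ERSE-II (ATTGG, any base, then CCACG, on either strand), was in 12 of the 32851 windows (0.0365%) and in none of the 9 genes. Of the 9 genes with it that were tested, 2 rose, Herpud1 and Rcl1 (the latter named after its value was seen). The Herpud1 site is printed with the motif's fixed letters in capitals.
Herpud1, chr8:94386357-94386407, plus strand: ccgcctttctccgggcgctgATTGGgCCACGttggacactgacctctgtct
The heat shock element (GAA, TTC and GAA with any 2 bases between each, on either strand) was in 198 windows (0.603%) and in none of the 9 genes. Of the 58 genes with it that were tested 6 rose, including Hsph1. Among all genes tested 3.91% rose. The shares of windows with each element are descriptions, and a match was not tied to a difference by any test.

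Over all 170 genes tested in 9 lists of related genes, 12 rose and 3 fell, or 12 and 10 with arrays centred on the median of the genes tested. The 12 include Hspa1a, which passed the filter only through its stimulated arrays. For all genes tested, the shares were 3.91% that rose, 1.62% that fell and 25.6% with an unadjusted p under 0.05. In the list of further disulfide isomerases and thiol oxidases 22 were tested, 0 rose and 1 fell (median -0.16). In the mean 19 of the 22 were lower, where 6647 of all 13058 genes tested were. Lower means were also found in 15 of 19 prolyl isomerase and collagen folding genes and 19 of 28 translocon and oligosaccharyltransferase genes. They were found in 12 of 16 calcium-binding genes, 4 of 4 retrieval receptors, 12 of 19 cochaperones and 7 of 11 glycoprotein folding genes. The other lists had 15 of 36 (response regulators and degradation) and 5 of 15 (paralogs). The gene that fell was Txndc11, an ER thioredoxin-domain protein (-0.62 ± 0.13, adjusted p = 0.0485, or 0.0981 to 0.222 with 1 array left out, and also lost with no filter, with each array centred on its median and with an intensity trend). Its list had 3 falls, with Txndc16 and Gpx7 added, under 4 of the other settings, namely centring on the median of the genes tested, the 60th percentile filter, the replicate block and the mean of probe sets. Among ER cochaperones, exchange factors and small chaperones 1 of 19 rose and 0 fell, with a median of -0.08. It was Dnajb9, ERdj4, a J-domain partner of BiP that represses IRE1, at 8.79 and 9.0 in controls and 9.83 and 10.55 with stimulation (1.29 ± 0.25, adjusted p = 0.0442). With 1 array left out its adjusted p was 0.0582 to 0.191. Dnajc1, another J-domain gene, was called as well, at 0.62, with the 60th percentile filter and with the block.

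The glycoprotein folding cycle had 11 genes tested and 0 called with limma (3 at an unadjusted p under 0.05, median -0.11), and its smallest p belonged to the cargo lectin genes Lman2 (-0.61 ± 0.14, adjusted p = 0.064) and Lman1 (-0.34 ± 0.12, adjusted p = 0.156). Lman2 was called, at -0.67, with centring on the median of the genes tested. Of 19 prolyl isomerase and collagen folding genes 1 fell and 0 rose (median -0.18), the ER isomerase gene Fkbp14 (-0.95 ± 0.18, adjusted p = 0.0435, or 0.0659 to 0.192 with 1 array left out, and also lost with the mean of probe sets). In the translocon and oligosaccharyltransferase list 0 of 28 were called (5 at an unadjusted p under 0.05, median -0.16), with the smallest p for Tusc3 (-0.81 ± 0.17, adjusted p = 0.0509) and Spcs3 (-0.52 ± 0.12, adjusted p = 0.0628). Both were called as lower with centring on the median of the genes tested and with the mean of probe sets, Tusc3 and Dad1 with the block, and Tusc3 alone with the 60th percentile filter and with an intensity trend. Dad1 was also called as lower without stimulated array 2. The retrieval receptors, which return escaped ER proteins from the Golgi, had 0 of 4 called (0 at an unadjusted p under 0.05), with Kdelr3 at -0.52 ± 0.21 (adjusted p = 0.198) and Kdelr1 at -0.29 ± 0.14 (adjusted p = 0.247). Of 16 ER and sarcoplasmic calcium-binding genes 1 rose and 0 fell (6 at an unadjusted p under 0.05, median -0.10). Both stimulated arrays were below both controls in 8, an order that 27.7% of all genes tested showed. The 5 others of those 6 were lower without passing, named here after their values were seen. They were Hrc (-0.88 ± 0.20, adjusted p = 0.0577), Srl (-0.57 ± 0.14), Casq1 (-0.86 ± 0.24), Casq2 (-0.79 ± 0.26), which encode calcium-handling proteins of the sarcoplasmic reticulum, and Rcn3 (-0.53 ± 0.18). Hrc was called as lower with centring on the median of the genes tested, the 60th percentile filter and the block, and Casq1 with the block. The gene that rose was Calr3, the mainly testis-expressed paralog of calreticulin, at 5.72 and 5.28 in controls and 7.21 and 7.09 with stimulation (1.65 ± 0.18, adjusted p = 0.0175, other probe sets 1.08 and 1.16). Without control 1 it passed, and without each other array its adjusted p was up to 0.0946.

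**Figure D4:**
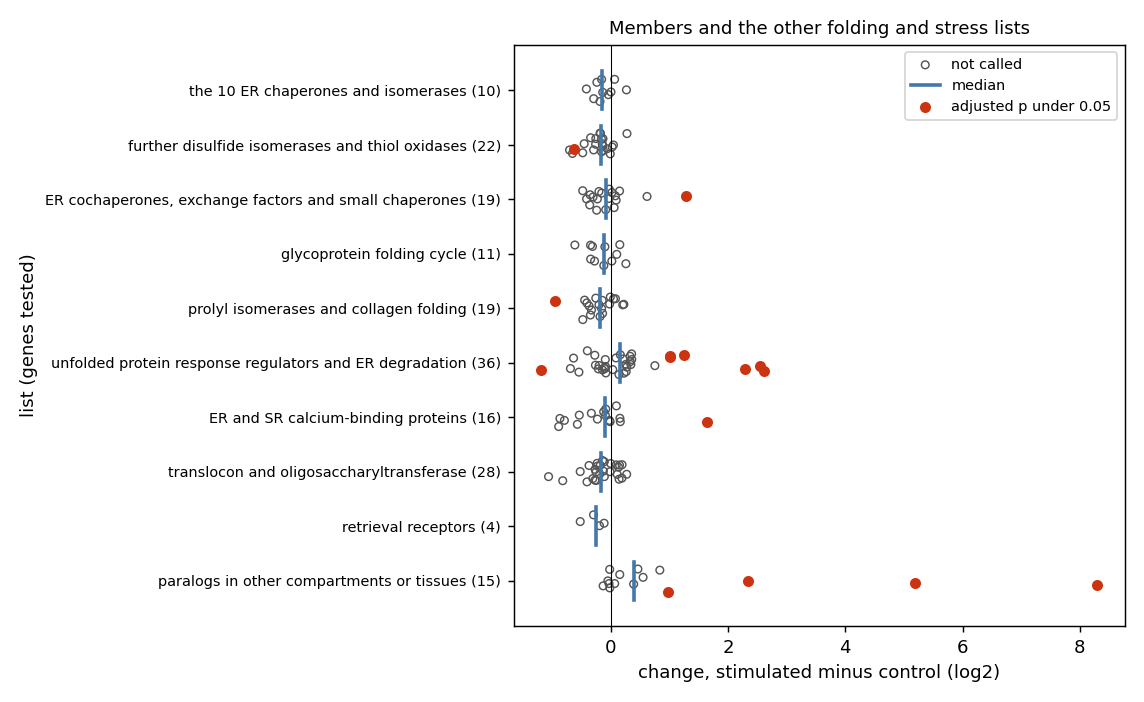
Difference between stimulated and control arrays (log2, horizontal axis) for the genes tested in each list (vertical axis, number of genes in brackets), with open points for genes that did not pass the test, red points for an adjusted p under 0.05 and blue bars for medians. The 10 ER chaperones and isomerases hold no red point, and the red points furthest right are Hspa1a, whose control arrays lay under the filter level, and Hspa1b in the list of paralogs.

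Paralogs of the same chaperone families outside the ER were called more than once. Of 15 tested 4 rose and 0 fell, with a median of 0.39, where 3.91% of all genes tested rose and 1.62% fell. The 4 include Hspa1a, which passed the filter only through its stimulated arrays and may share its signal with Hspa1b. The count is therefore a description. Hspa1b and Hspa1a, the heat-inducible cytosolic HSP70 genes, which are nearly identical so that their probe sets may not separate them, were both called as higher. Hspa1b rose by 5.19 ± 0.23 (adjusted p = 0.00167). Hspa1a went from 3.42 and 4.05 to 11.44 and 12.59. Since its controls lay under the filter level of 4.39, it passed the filter through the stimulated arrays. Neither the size of its rise nor its p is given. Hsph1, the cytosolic relative of Hyou1, went from 9.69 and 9.53 to 11.49 and 12.42 and rose by 2.34 ± 0.30 (adjusted p = 0.0228, or 0.107 without control 1 and 0.133 without control 2). Within arrays, Hsph1 minus Hyou1 shifted by 2.27 and Hsp90aa1 minus Hsp90b1 by 1.13, with no overlap between groups. Both pairs were chosen with the values known, and each holds a gene already called as higher, so this is a description only. Among all single genes tested, 55.3% had no overlap between groups. An exact permutation test gave p = 0.333 for each, the smallest that 2 against 2 arrays allow.

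The constitutive members Hspa8 and Hspa9 were not called here but were under other settings. Hspa8, the constitutive cytosolic HSP70, differed by 0.39 ± 0.12 (adjusted p = 0.112), and its other probe sets gave 0.39 to 2.97. It was called with an intensity trend, and at 1.10 with the mean of probe sets. Hspa9, the mitochondrial HSP70, differed by 0.55 ± 0.12 (adjusted p = 0.0598, other probe sets -0.22 to 0.78), and was called with the 60th percentile filter, with an intensity trend and with the block. Trap1, the mitochondrial HSP90, differed by -0.05 ± 0.12 (adjusted p = 0.863). Within arrays and by the brightest probe sets, Hspa8 minus Hspa5 overlapped between the groups, at 0.60 and 0.88 in controls and 0.82 and 0.91 with stimulation. Hspa9 minus Hspa5 did not overlap, at -1.15 and -0.97 in controls and -0.74 and -0.81 with stimulation, a shift of 0.28. Both pairs were chosen with the values known. Hsp90ab1 was not analysed here.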

How the data were processed

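Per the submitters' processing notes, the authors made the deposited log2 values with RMA (background correction, quantile normalization and 1 summary per probe set). Its version and settings, and an annotation of their own, are not given in the sources used here. Array medians were 4.96 to 5.01. Probe sets were named from GEO's platform annotation. Of 45037, 34945 had 1 symbol, 932 had several and 9160 had none. A RefSeq table (GRCm38.p6) held 34741 of the identifiers, and 0 symbols needed updating. The test was limma's (version 3.58.1, R 4.3.3: lmFit, then eBayes), two-sided, stimulated minus control, with Benjamini-Hochberg adjustment and a threshold of 0.05. It was run once over 13058 genes and once over all 27022 probe sets past the 40th percentile. Values of secondary member probe sets come from the second fit. The script was tested on simulated data. The genes, lists and tests were chosen with earlier results of these data known. Named genes were all members, fixed stress, prolyl hydroxylase and paralog genes, and per list the called genes (at most 6) or else the 2 with the smallest p. Some further genes were named beyond this rule with their values known. Among them were Creb3l2, and Creb3l1, Txndc16, Gpx7, Dnajc1 and Dad1, which were called under other settings only. There are 2 arrays per group, which limits the precision.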

Additional observations from a re-analysis of the deposited data

How the results depend on the processing

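Over 11 other ways of processing 0 of the 10 genes passed the test, and over 10 (all but the mean of probe sets) 0 of their probe sets did, and the lowest adjusted p of a gene was 0.0777 (Pdia4). Of 110 recomputed differences 103 kept their sign and 7 reversed. Many of these signs were fixed in advance, so the count is no measure of stability. A changed filter, the intensity trend and the block leave every difference as it was. The mean of probe sets does so for P4hb and Sdf2l1, which have a single probe set. Hyou1 was -0.26 with the mean of all probe sets and -0.063 to 0.20 with 1 array left out, Calr was -0.11 to 0.042 with 1 array left out, and Canx was -0.056 with arrays centred on the median of the genes tested (an alternative chosen after the data were seen) and -0.041 to 0.055 with 1 array left out. The median of the 10 was -0.21 with that centring, -0.22 with the mean of probe sets and -0.18 to -0.073 with 1 array left out. With the replicate number as a block, 1345 genes, 2040 probe sets and 27 genes of the other lists were called, against 722, 1039 and 15. The titles give the controls no number, so which control shared a block with which stimulated array was assigned here. No label states a shared culture. Control 1 minus control 2 correlated with stimulated 1 minus stimulated 2 at 0.33 over genes. With 1 array left out, the lone array being assumed to vary like the rest, 20 to 113 genes, 7 to 114 probe sets and 4 to 7 list genes passed. The causes were not tested. The 2 arrays per group limit the precision.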
